A study of Mus musculus with 4 samples.

Results

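The 32 genes described here belong to the unfolded protein response of the endoplasmic reticulum (ER) and to the integrated stress response that shares part of its wiring. They fall into 14 ER chaperones and folding enzymes, 4 genes of ER-associated degradation, 4 genes that hold the 3 ER stress sensors and Xbp1, and 10 genes around the transcription factor ATF4. Members were found by gene name among the non-control probes of each array, and a gene was represented by the brightest of its probes that passed the scanner's background flag on 2 or more of the 4 arrays. All 32 were among the 23520 gene names measured in this way, and each of the 32 was well above background on all 4 arrays.

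The study used 4T1, a mammary carcinoma cell line derived from a BALB/c mouse, grown as tumours in BALB/C mice that received no treatment. Tumour cells were sorted by the activity of aldehyde dehydrogenase (ALDH), an enzyme used as a marker of stem-like tumour cells, with the fluorescent ALDEFLUOR substrate. There were 4 samples, 1 for each combination of the ALDH-low or ALDH-high fraction and of ZT0 or ZT12, which is read here as zeitgeber time in hours from lights on. The age of the mice, the number of tumours behind each fraction and any genotype beyond the strain are not given in the sources used here. No group had a replicate, so a difference between groups is a difference between 2 arrays, with no error between tumours. Because each fraction is a bulk sample, fewer cells of a type and less RNA per cell cannot be told apart.

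Proteins that enter the secretory pathway are folded in the ER by chaperones such as BiP (the product of Hspa5) and by disulfide isomerases, and proteins that fail to fold are returned to the cytosol and degraded. When unfolded protein builds up, the sensors IRE1 (Ern1), ATF6 and PERK (Eif2ak3) respond: IRE1 splices the Xbp1 messenger RNA, ATF6 is cut to release a transcription factor, and PERK phosphorylates the translation factor eIF2. Spliced XBP1 and ATF6 act mainly on chaperone and degradation genes, while phosphorylated eIF2 lowers general translation and favours translation of ATF4, which acts on genes of amino acid supply, redox balance and cell death. Other kinases that sense amino acid shortage, haem shortage or viral RNA also phosphorylate eIF2, so the ATF4 genes can move without the chaperones.

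The promoters of the 2 main groups are shown first because they differ in the sequence elements through which XBP1, ATF6 and ATF4 are known to act. RefSeq promoters of build GRCm38.p6, each from 250 bases before to 50 bases after a gene's start, were matched to 29 of the 32 members, and Atf6, Manf and Hyou1 were not matched. Both strands were searched for the ER stress response element (CCAAT followed, after any 9 bases, by CCACG), for its second form (ATTGG followed, after any 1 base, by CCACG), for the XBP1 and ATF6 core TGACGTGG, and for the C/EBP-ATF composite element TGATGNAA. The first element was found in 7 of the 12 chaperone promoters, those of Hspa5, Hsp90b1, Calr, Canx, Pdia6, Dnajc3 and Creld2, in that of Syvn1, and in 0 of the 10 promoters of the ATF4 group, against 0.119% of all 32851 promoters. The second form was in the promoters of Dnajb11 and Herpud1 (0.0365% of all promoters), and TGACGTGG in 0 of the members (0.676% of all). The composite element was in those of Asns, Chac1, Trib3 and Herpud1 (3.97% of all). Capitals mark the element below, as read on the gene's strand, and a match describes the letters only.
Hspa5 (chr2:34772015-34772053, plus strand): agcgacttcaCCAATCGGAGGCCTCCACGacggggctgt
Canx (chr11:50325790-50325828, minus strand): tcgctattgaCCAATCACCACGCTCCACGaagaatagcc
Pdia6 (chr12:17266481-17266519, plus strand): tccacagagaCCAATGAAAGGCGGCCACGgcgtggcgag
Dnajc3 (chr14:118937817-118937855, plus strand): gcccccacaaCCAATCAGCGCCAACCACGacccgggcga
Calr (chr8:84847065-84847103, minus strand): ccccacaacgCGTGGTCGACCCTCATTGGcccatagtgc
Creld2 (chr15:88819510-88819548, plus strand): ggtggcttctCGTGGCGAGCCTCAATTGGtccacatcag
Syvn1 (chr19:6046522-6046560, plus strand): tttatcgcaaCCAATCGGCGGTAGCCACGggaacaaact
Herpud1 (chr8:94386307-94386397, plus strand): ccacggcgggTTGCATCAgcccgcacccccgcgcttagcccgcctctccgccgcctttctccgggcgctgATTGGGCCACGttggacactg
Asns (chr6:7693215-7693242, minus strand): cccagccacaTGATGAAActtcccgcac
Chac1 (chr2:119351039-119351066, plus strand): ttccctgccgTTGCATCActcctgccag
The element reads forward in Hspa5, Canx, Pdia6, Dnajc3 and Syvn1 and in reverse in Calr and Creld2, and the Herpud1 window holds the composite element upstream of the second form. The 39-base windows of Hspa5 and Pdia6 lie at -75 to -37 and -108 to -70 from the gene's start.

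Levels are given as the log2 processed signal of a probe minus the 75th percentile of its array, so 0 is the 75th percentile and 1 unit is 2-fold, and levels of different probes are not set against each other. The 75th percentile of the linear signal was 213.6, 300.6, 458.8 and 156.3 on the 4 arrays in the order ZT0 ALDH-low, ZT0 ALDH-high, ZT12 ALDH-low and ZT12 ALDH-high, which is the order used for all values below. Between 55.8% and 60.6% of 59305 spots were well above background, and 0 were saturated. Replicate spots of a probe on 1 array differed with a median SD of 0.0370 to 0.0450 log2 units, while different probes of 1 gene differed in their contrasts with a median SD of 0.408 to 0.490 over 7324 genes. The ZT0 arrays were on 1 slide and the ZT12 arrays on the other, and the effects of slide and of time cannot be told apart. ZT0 ALDH-low and ZT12 ALDH-high lay at array position 1_1, and ZT0 ALDH-high and ZT12 ALDH-low at position 1_2, so an ALDH difference that turns round between the 2 times and a difference between positions cannot be told apart. The slope fitted to the spike-in controls was 0.873, 0.956, 0.944 and 0.789. The quality check of the scanner software put it out of range on both position 1_1 arrays and in range on both 1_2 arrays. The part of this in the differences between arrays was not tested.

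At ZT0, most chaperones were lower in the ALDH-high fraction while most ATF4 genes, the sensors, Xbp1 and the degradation genes were higher. At ZT12 both patterns were turned round. These directions are those of the brightest probe of a gene, and for the sensors Ern1 and Atf6 they depend on the probe. With the probes of a gene averaged, the median of the sensors and Xbp1 was 1.11 at ZT0 and -1.18 at ZT12. The median ALDH-high minus ALDH-low difference of the 14 chaperones was -0.94 log2 units at ZT0, and that of the 10 ATF4 genes was 1.51. The sensors and Xbp1 had a median of 1.34 and the degradation genes of 0.92, beside -0.32 for all 23520 features. At ZT12 the medians were 0.40 for chaperones, -1.08 for ATF4 genes, -1.49 for the sensors and Xbp1 and -1.05 for degradation genes, beside 0.30 for all features. The chaperone median at ZT12 changed sign, to -0.53, when arrays were scaled on their median.

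Of the 32 members, 11 were higher and 8 lower by 2-fold or more in ALDH-high cells at ZT0, where 20.5% of all features were higher and 31.5% lower. At ZT12, 7 members were higher and 12 lower by that size, against 32.2% and 17.9% of all features. Scaled on array medians, 17 members were higher and 4 lower at ZT0, beside 30.5% and 19.8% of all features, and 3 were higher and 19 lower at ZT12, beside 19.5% and 40.5%. The sign of the ALDH difference was opposite at the 2 times for 29 of the 32 members, a share near the 84.2% of all features. Dnajb9, Edem1, Xbp1, Ern1, Eif2ak3, Atf4, Ppp1r15a, Chac1, Asns and Sesn2, 10 in all, were 2-fold or more above ALDH-low at ZT0 and 2-fold or more below it at ZT12, a larger share than the 15% of all features. The reverse was seen in Calr, Pdia4, Sdf2l1, Hyou1, Psat1 and Phgdh, 6 members in all, near the 20.4% of all features. Under median scaling these counts were 17 and 1, beside 27.6% and 10.66% of all features.

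**Figure D1:**
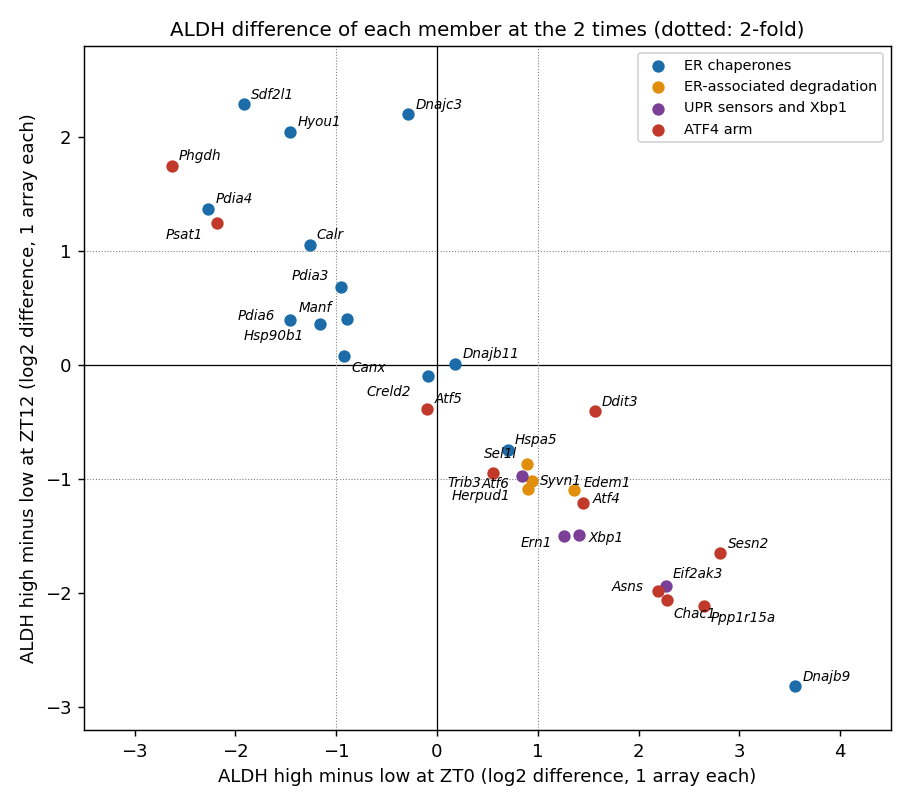
Each point is 1 of the 32 genes, with its ALDH difference (high minus low, log2) plotted for ZT0 on the x axis and for ZT12 on the y axis (1 array per fraction and time, so no error bars) and dotted lines at 2-fold. Most chaperones lie at the upper left and most ATF4, sensor and degradation genes at the lower right; Dnajb9 (3.55 and -2.82) lies apart from the other chaperones, and Psat1 and Phgdh lie with the chaperones.

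Among the chaperones, the disulfide isomerases had like profiles. Pdia4 (probe at chr6:47746516-47746575 in build mm9) had levels of 0.94, -1.33, -0.48 and 0.90, a 4.82-fold lower signal in ALDH-high than in ALDH-low cells at ZT0 and a 2.59-fold higher one at ZT12. Pdia6 read 5.52, 4.06, 4.92 and 5.32, which is 2.75-fold lower at ZT0 and 1.32-fold higher at ZT12. Pdia3 read 2.42, 1.47, 1.72 and 2.41. All 3 genes were highest in ZT0 ALDH-low and lowest in ZT0 ALDH-high, and the ZT12 ALDH-high level differed from the highest by only -0.04 log2 units for Pdia4 and -0.01 for Pdia3.

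Calreticulin and calnexin retain glycoproteins until they are folded, and Hsp90b1 encodes GRP94, the ER member of the HSP90 family. Calr had levels of 4.00, 2.74, 3.0 and 4.06, so both position 1_1 arrays were about 1 unit above both others. Canx read 4.57, 3.65, 4.26 and 4.34, and Hsp90b1 read 5.71, 4.55, 5.25 and 5.61. For these last genes the ZT0 ALDH-high array was the low one, and the ALDH difference at ZT12 was small, 0.09 for Canx and 0.36 for Hsp90b1. The ZT12 differences of Hsp90b1, Canx, Pdia3, Pdia6, Manf and Dnajb11 turned negative when arrays were scaled on their median.

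Sdf2l1 (chr16:17130426-17130485, mm9), which encodes a component of the ER chaperone complex, had levels of 1.27, -0.65, -0.69 and 1.60. Its signal was 3.77-fold lower in ALDH-high cells at ZT0 and 4.89-fold higher at ZT12. Hyou1, an ER nucleotide exchange factor of the HSP70 type, read -2.02, -3.48, -4.20 and -2.15. The 4 probes of Hyou1 did not share a sign at ZT0 (-1.46 to 0.82) but did at ZT12 (0.50 to 2.05). Dnajc3, the J-protein P58IPK that binds unfolded protein and restrains PERK, read 0.41, 0.12, -0.10 and 2.10. It was high on the ZT12 ALDH-high array alone, 4.60-fold above ZT12 ALDH-low.

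Manf, a secreted ER-stress protein, read 2.43, 1.54, 1.96 and 2.37. Creld2, an ER disulfide isomerase-like protein, read 3.66, 3.57, 3.93 and 3.84, and the BiP co-chaperone Dnajb11 read 2.25, 2.43, 2.36 and 2.37. The last genes differed little over the 4 arrays, and their small differences changed sign with the scaling in all 4 contrasts.

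Hspa5 and Dnajb9 went the other way. Hspa5 (chr2:34631913-34631972, mm9), whose product BiP is the main HSP70 chaperone of the ER, read 5.72, 6.42, 6.39 and 5.65. Its signal was 1.63-fold higher in ALDH-high cells at ZT0 and 1.67-fold lower at ZT12, below the 2-fold size counted here, and its 3 probes gave 0.56 to 0.70 at ZT0 and -0.74 to -0.59 at ZT12. Dnajb9 (chr12:45307071-45307129, mm9) encodes ERdj4, a J-protein that assists degradation and holds IRE1 inactive. Its levels were 0.86, 4.42, 4.22 and 1.40, an 11.7-fold higher signal in ALDH-high cells at ZT0 and a 7.04-fold lower one at ZT12, the largest differences of any member at both times. Both position 1_2 arrays were high and both 1_1 arrays low, and its 2 probes shared the sign in both contrasts (3.35 and 3.55 at ZT0; -2.82 and -1.78 at ZT12).

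The 7 chaperones with the ER stress response element did not share a direction. At ZT0 their ALDH differences ran from -1.46 (Pdia6) to 0.70 (Hspa5), and Creld2 was at -0.09. The chaperones whose promoter window held neither form were Pdia3, Pdia4, Dnajb9 and Sdf2l1, with ALDH differences at ZT0 of -0.95, -2.27, 3.55 and -1.91.

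The degradation genes had nearly the same profile as each other. Edem1, a lectin-like protein that directs misfolded glycoproteins to degradation, read 1.26, 2.62, 2.56 and 1.47. Syvn1, the ubiquitin ligase HRD1, read 3.69, 4.64, 4.68 and 3.66, and Sel1l, its adaptor, read 2.39, 3.28, 3.27 and 2.41. In each the ZT0 ALDH-high and ZT12 ALDH-low arrays were the high ones. Herpud1, which helps assemble the HRD1 complex, read 1.89, 2.79, 3.03 and 1.95. The ALDH differences of the group ran from 0.89 to 1.36 at ZT0 and from -1.10 to -0.86 at ZT12, and 1 of 4 at ZT0 (20.5% of all features were higher) and 3 of 4 at ZT12 (17.9% were lower) reached 2-fold. That count depended on the scaling. With median scaling it was 4 of 4 at both times, beside 30.5% of all features higher at ZT0 and 40.5% lower at ZT12. It was 0 of 4 at both times with quantile normalization (20.4% and 20.4% of all features) and in the series table (20.7% and 20.8%). With quantile normalization the medians of the group were 0.38 at ZT0 and -0.64 at ZT12, in the same directions.

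Of the sensors, Eif2ak3, which encodes PERK, had levels of -0.36, 1.91, 1.73 and -0.20, a 4.82-fold higher signal in ALDH-high cells at ZT0 and a 3.82-fold lower one at ZT12. Xbp1 (chr11:5425816-5425875, mm9) read 5.03, 6.44, 6.94 and 5.45, and its 3 probes agreed in sign (1.41 to 1.91 at ZT0; -1.75 to -1.49 at ZT12). Whether the Xbp1 message was spliced was not analysed here. Ern1 read 0.41, 1.68, 1.38 and -0.12 and Atf6 read 0.70, 1.54, 1.63 and 0.66 on their brightest probes. Other probes of these sensors disagreed: the 3 tested for Ern1 ran from -0.02 to 1.26 at ZT0 and from -1.49 to 0.15 at ZT12, and the 2 for Atf6 had opposite signs (-0.69 and 0.84 at ZT0; -0.97 and 3.41 at ZT12). The direction of Ern1 and Atf6 therefore depends on the probe.

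In the ATF4 group, Atf4 itself (chr15:80087902-80087961, mm9) had levels of 5.99, 7.45, 7.57 and 6.36, a 2.74-fold higher signal in ALDH-high cells at ZT0 and a 2.31-fold lower one at ZT12. ATF4 is controlled largely at translation, which arrays do not measure. Ppp1r15a (chr7:52778320-52778379, mm9) encodes GADD34, the inducible subunit of the phosphatase that restores eIF2, and read 4.13, 6.78, 6.82 and 4.71. Its signal was 6.26-fold higher in ALDH-high cells at ZT0 and 4.32-fold lower at ZT12. Sesn2 (chr4:132048858-132048917, mm9), a leucine sensor and inhibitor of mTORC1, read 1.01, 3.82, 3.50 and 1.85, which is 7.02-fold higher and 3.14-fold lower. In all 3 genes both position 1_2 arrays exceeded both 1_1 arrays by at least 1 log2 unit.

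Chac1, a glutathione-degrading enzyme, read -0.52, 1.76, 1.39 and -0.67. Asns, asparagine synthetase, read 1.40, 3.59, 3.35 and 1.38. Both carry the composite element printed above, and both were about 2 log2 units higher on the ZT0 ALDH-high and ZT12 ALDH-low arrays. Trib3, a pseudokinase target of ATF4 and CHOP, which also holds that element, differed less, at 0.64, 1.19, 1.46 and 0.52. Ddit3, which encodes the death-associated factor CHOP, read 3.15, 4.72, 3.82 and 3.42 on its brightest probe, with a high ZT0 ALDH-high array only. The other tested probe departed from this: in ALDH-low cells, ZT12 minus ZT0 was 2.88 on it and 0.67 on the brightest. The ZT12 ALDH difference of Ddit3 was -0.40 on the brightest probe and -2.09 on the other, and quantile normalization turned the first to 0.05. Atf5, a related factor, read 2.51, 2.41, 3.17 and 2.79, and its small ALDH differences changed sign with the scaling at both times.

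Psat1 and Phgdh, which carry out the first steps of serine synthesis, ran against the rest of the ATF4 group. Phgdh (chr3:98117098-98117157, mm9) had levels of 3.77, 1.14, 1.92 and 3.67, a 6.19-fold lower signal in ALDH-high cells at ZT0 and a 3.37-fold higher one at ZT12. Psat1 read 1.85, -0.34, 0.24 and 1.49, which is 4.55-fold lower and 2.37-fold higher. Both were high where Pdia4 and Calr were high. With these genes included, 6 of the 10 ATF4 genes were higher and 2 lower by 2-fold or more at ZT0, and 2 were higher and 5 lower at ZT12 (0 and 8 with median scaling). Of all features, 20.5% were higher and 31.5% lower at ZT0, and 32.2% and 17.9% at ZT12 (19.5% and 40.5% with median scaling).

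**Figure D2:**
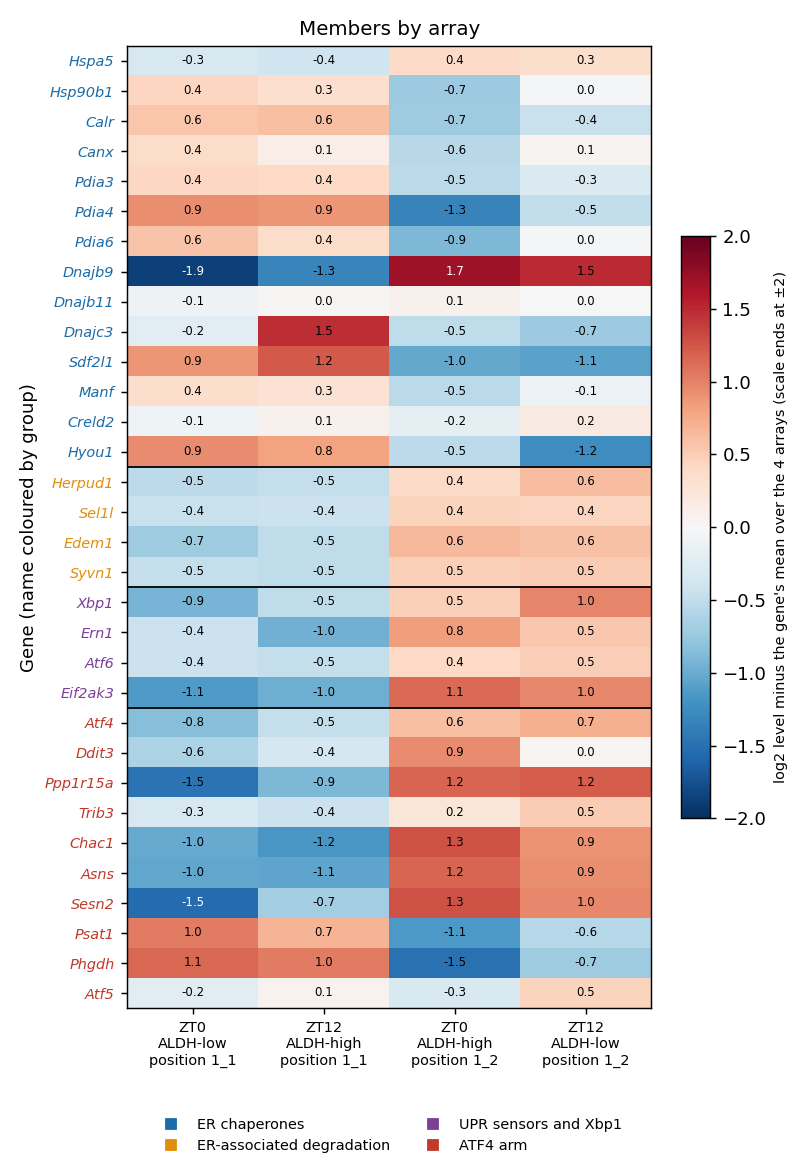
Rows are the 32 genes, coloured by group, and columns the 4 arrays ordered by array position; each cell gives the log2 level minus the gene's mean over the 4 arrays, on a colour scale that ends at 2 units. The arrays of 1 position resemble each other in most rows, as for Ppp1r15a (4.13 and 4.71 before centring at position 1_1, 6.78 and 6.82 at position 1_2). Dnajc3 is the clearest exception. In rows such as Hsp90b1, Canx, Pdia6, Ddit3, Atf5 and Creld2, the ZT12 arrays lie closer to each other than the position 1_2 arrays do.

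Set against each other within each contrast, the chaperone median lay 2.45 log2 units below the ATF4 median at ZT0 (a difference of -2.45) and 1.48 units above it at ZT12. These differences do not depend on any constant added to an array, and over the other scalings, filters, probe rules and the deposited series table they ran from -2.69 to -2.40 and from 1.48 to 1.69. Without Atf4 itself they were -2.50 and 1.35. Between the means of the groups, in place of the medians, the differences were smaller, at -1.45 and 1.29. Counted from the median of all features, the chaperone median was -0.62 at ZT0 and 0.10 at ZT12. The ATF4 median was 1.83 and -1.37 on that count, so at ZT12 the difference came mostly from the ATF4 group. At ZT0, 13 of the 14 chaperones lay below the ATF4 median, with Dnajb9 above it, and at ZT12 13 lay above it. Most features of the arrays lay on the same sides. The upper quartile of all features was 0.75 at ZT0, below the ATF4 median of 1.51. Their lower quartile was -0.68 at ZT12, above the ATF4 median of -1.08. These counts of chaperones are thus not a trait of the group. The groups still overlapped, since Hspa5 and Dnajb9 sat with the ATF4 genes and Psat1 and Phgdh with the chaperones.

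Between times, the same split was seen in each fraction. From ZT0 to ZT12 in ALDH-low cells, the chaperone median differed by -0.49 and the ATF4 median by 1.20, beside -0.42 for all features. In ALDH-high cells they differed by 1.0 and -1.19, beside 0.33. The chaperone median in ALDH-low cells thus lay near that of all features. With median scaling the chaperone value in ALDH-low cells was 0.39, a change of sign, and the ATF4 value 2.08. In ALDH-low cells 10 members were higher and 6 lower at ZT12 by 2-fold or more, against 17.5% and 32.7% of all features. In ALDH-high cells 9 were higher and 10 lower, against 32.5% and 20.8%. On median scaling these were 19 higher and 2 lower in ALDH-low cells, beside 35.7% and 18.3% of all features, and 5 higher and 17 lower in ALDH-high cells, beside 19.2% and 31.9%. The largest differences between times were again those of Dnajb9, 3.36 in ALDH-low and -3.01 in ALDH-high cells. Each of the 4 contrasts shares an array with 2 of the others, so they are not separate evidence of 1 pattern.

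**Figure D3:**
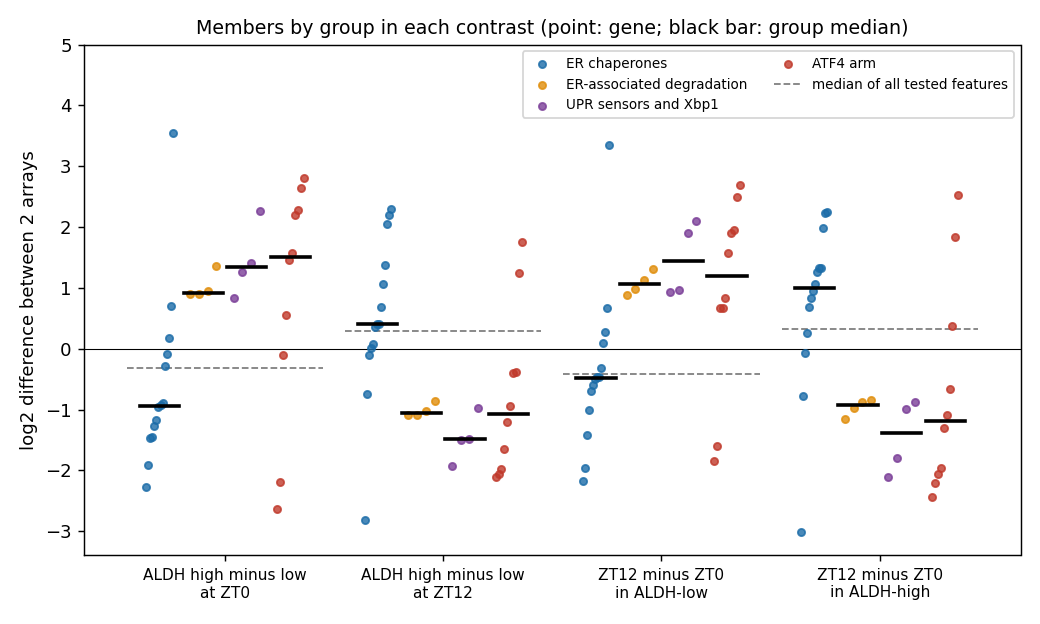
The y axis gives the log2 difference between 2 arrays for each gene in the 4 contrasts; points are genes, black bars group medians and dashed lines the median of all 23520 features. The chaperone median (-0.94, 0.40, -0.49 and 1.0) and the ATF4 median (1.51, -1.08, 1.20 and -1.19) lie on opposite sides of 0 in every contrast at this scaling.

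A test was possible only in a model that pools the arrays. In an additive limma fit with ALDH fraction and time (Benjamini-Hochberg over 23520 features, threshold 0.05), 0% of features were called for ALDH and 0% for time. At an unadjusted p under 0.05 there were 7 and 2 features, and 0 of the 32 members, for either factor. The smallest adjusted p of limma was 1, and the standard error was 1.54 log2 units for every gene. With array position as a fixed block in place of the other factor, since 4 arrays cannot carry all 3 terms and a residual, 0 features were called and 1915 and 362 had an unadjusted p under 0.05, with 0 members among them; this alternative was added after the data were seen. The additive fit estimates a shift in ALDH that is common to both times. The mean ALDH difference over both times had a median of -0.04 over the 32 members. What remains as error in that fit, on 1 residual degree of freedom, is how far the ALDH difference changes between ZT0 and ZT12. On these arrays that change is also the difference between positions. The p-values of the additive fit thus set a common shift against the reversal described above, and not against noise between replicates. The lack of calls therefore does not bear on differences that turn round between the times.

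Arrays that shared a position, although they differed in both ALDH fraction and time, were closer by median size than any other pair. This held for these genes and for all features. At position 1_1, ZT12 ALDH-high minus ZT0 ALDH-low had a median size of 0.16 log2 units over the 32 members, and only Dnajc3 (1.70) reached 2-fold, against 6.78% of all features. At position 1_2, ZT0 ALDH-high minus ZT12 ALDH-low had a median size of 0.27, and 0 members reached 2-fold, against 20.9% of all features. Across positions the median size was 1.31 and 1.09 for ALDH at ZT0 and ZT12, and 0.99 and 1.21 for time in ALDH-low and ALDH-high cells, with 19, 19, 16 and 19 members at least 2-fold apart. Ern1 (-0.53) was the lowest and Dnajc3 the highest at position 1_1, and Pdia6 (-0.86) and Ddit3 (0.90) bounded the range at position 1_2.

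**Figure D4:**
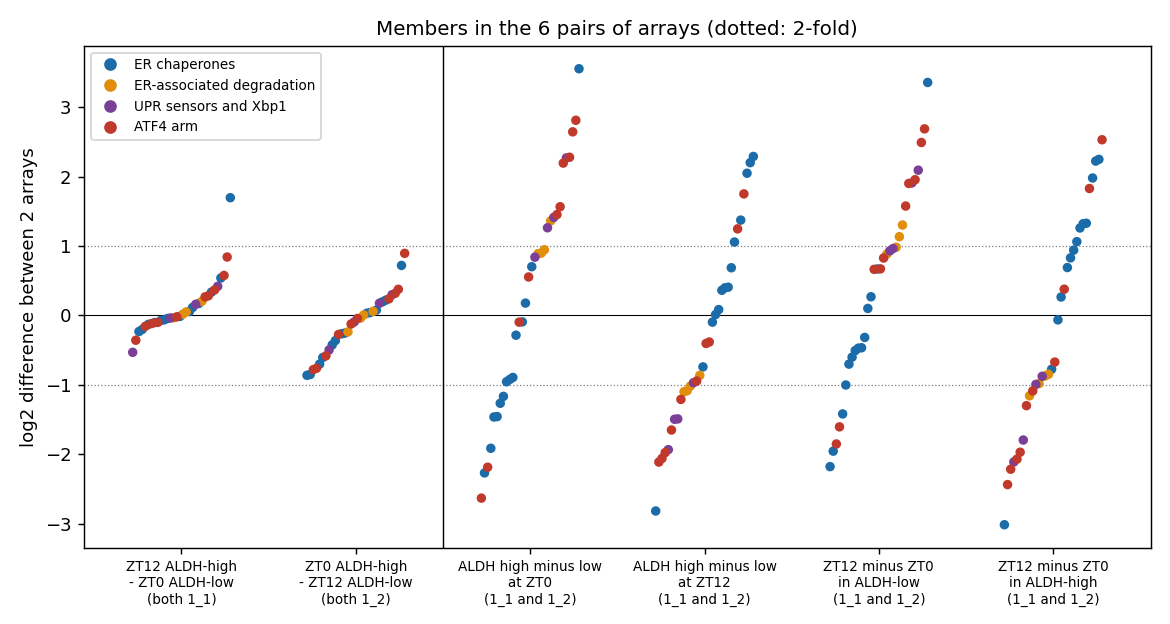
For each of the 6 pairs of arrays, the 32 genes are ranked along the x axis by their log2 difference (y axis), with dotted lines at 2-fold. In the 2 pairs that share a position, at the left, 1 and 0 genes pass 2-fold (6.78% and 20.9% of all features). In the other 4 pairs 16 to 19 do (50.1% to 53.2% of all features).

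Markers of other cells and of handling differed between the arrays too. The 9 epithelial markers, which 4T1 cells express, summed to 186, 11.6, 84.4 and 88.8 times the 75th percentile on the 4 arrays. Cldn4 was not well above background in ZT0 ALDH-high. All 9 were lower in ALDH-high cells at ZT0, each by 2-fold or more (31.5% of all features). At ZT12 all 9 were higher, 1 of them by 2-fold or more (32.2% of all features). Their medians were -3.57 and 0.66, beside -0.32 and 0.30 for all features, the directions of the chaperone medians. Neutrophil markers (9 measured) summed to 2252, 3168, 1950 and 3086. Taken gene by gene, their median ALDH difference was 3.16 at ZT0 (6 of 9 higher by 2-fold or more, 0 lower) and -1.58 at ZT12 (2 higher, 5 lower), the directions of the ATF4 group. The 4 pan-leukocyte markers summed to 112, 569, 355 and 147, highest on the arrays where the ATF4 group was high. The samples labelled as 4T1 cells thus held transcripts of blood cells on every array.

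T and NK cell markers summed to 38.0, 16.7, 4.23 and 48.3, and B cell markers to 27.5, 5.02, 1.47 and 36.3. Plasma cells are secretory cells rich in chaperones, and 5 of their 6 markers were measured, with sums of 7.94, 2.57, 3.60 and 7.62. Cd3g and Jchain were not well above background in ZT12 ALDH-low, nor Cd79a on either position 1_2 array. The sums of these 3 lists were high where the chaperones, Psat1 and Phgdh were high, on both position 1_1 arrays. Erythroid markers (5 of 6 measured) summed to 850, 3.32, 3.67 and 285, and macrophage markers to 183, 147, 139 and 223, both also highest there, and Alas2 and Slc4a1 were not well above background on the position 1_2 arrays. Gene by gene, the ALDH difference was negative at ZT0 and positive at ZT12 for 8 of 9 T and NK markers. It was so for 6 of 6 B cell, 3 of 5 plasma cell, 5 of 5 erythroid and 5 of 7 macrophage markers. Of all 23520 features, 11759 had that pattern. Cd3d was higher in ALDH-high cells at both times (1.90 and 1.03), and Jchain was 0.03 higher at ZT0 and 5.20 higher at ZT12. Fibroblast markers summed to 20.3, 17.1, 11.3 and 12.5, and the 2 measured of 5 endothelial markers to between 0.432 and 0.751. The immediate early genes, which respond to tissue dissociation within minutes, summed to 217, 1589, 1376 and 280, and all 9 were higher in ALDH-high cells at ZT0 and lower at ZT12, each by 2-fold or more. Atf3, counted in that list and itself part of the integrated stress response, read 3.04, 5.10, 4.86 and 3.54. The part of cell content, array position and handling in the differences of the 32 genes was not tested.

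Genes of the same pathways outside the 32 did not follow the split as a whole. Of 47 further genes of ER folding and secretion, 4 were higher and 11 lower by 2-fold or more in ALDH-high cells at ZT0, with a median of -0.40. At ZT12, 4 were higher and 4 lower, with a median of -0.04. Of all features, 20.5% were higher and 31.5% lower at ZT0, and 32.2% and 17.9% at ZT12. The translocon, signal peptidase and glycosylation genes make up much of that list. Stt3a, a catalytic subunit of the oligosaccharyltransferase, differed by -1.74 at ZT0 and 1.78 at ZT12, and Pdia5 by -2.0 and 3.26, as the main disulfide isomerases did. Edem2 (2.29 and -1.63) and Derl1 (1.77 and -1.44), both of ER-associated degradation, had the direction of Edem1. Wfs1 (-1.40 and -0.33), Fkbp14 (-1.19 and -0.44) and Sec61b (-0.23 and 0.90) were the lowest and among the highest by their mean over both times.

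Of 38 further ATF4 targets, 5 were higher and 12 lower by 2-fold or more in ALDH-high cells at ZT0 (median -0.48), beside 20.5% and 31.5% of all features. At ZT12, 7 were higher and 7 lower (median 0.13), beside 32.2% and 17.9% of all features. Their medians thus lay near those of all features and not near the 1.51 and -1.08 of the 10 members. Slc7a11, the cystine importer, had differences of 2.43 and -1.89, and Jdp2, a repressor of the AP-1 type, had 2.52 and -2.08, in the direction of Asns and Chac1. Aldh1l2, a mitochondrial folate enzyme, had -1.61 and 2.78, and Gdf15, a stress cytokine, had -2.34 and 2.70. Shmt2, which feeds serine into one-carbon metabolism, had -2.33 and 1.45, and was chosen after its values were seen because it acts beside Phgdh and Psat1. Psph, the last step of serine synthesis, chosen likewise, was small at -0.50 and 0.29. Slc6a9 (-1.80 and -0.33), Xpot (-1.68 and -0.21) and Vldlr (0.21 and 2.43) were named by their mean over both times. The 12 aminoacyl-tRNA synthetases of the list had medians of -0.48 and 0.13, with 0 higher and 2 lower at ZT0 by 2-fold and 0 higher and 1 lower at ZT12. The shares of all features given above apply to these counts too.

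Among 11 kinases and regulators of eIF2, the median difference was -0.05 at ZT0 and -0.07 at ZT12. By 2-fold, 3 were higher and 3 lower at ZT0, beside 20.5% and 31.5% of all features. At ZT12, 1 was higher and 2 lower, beside 32.2% and 17.9%. Ppp1r15b, the constitutive partner of Ppp1r15a, differed by 2.52 and -2.24, and Crebrf by 2.54 and -2.28. Eif2ak1, the haem-regulated kinase, differed by 1.24 and -0.96, whereas Eif2ak4, the amino acid-sensing kinase GCN2, differed by -1.37 and 0.04. Eif2b3, a subunit of the exchange factor for eIF2, differed by -2.56 and 1.44, and Eif2s1, which encodes the phosphorylated subunit itself, by -1.18 and 0.61.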

How the data were processed

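RNA of 4 sorted fractions was amplified, labelled with Cy3 and measured on one-colour arrays, per the labels' protocols. Per the file headers, the deposited signal of a spot is a linear intensity from which the scanner software had removed background and spatial trend, with no scaling between arrays. Those headers name Feature Extraction 10.7.1.1 and build mm9, and the submitters' processing notes name 9.5.1.1. The authors' series table also holds intensity values, with a median of 28.3 in each column and sorted values within 0.0517% of each other, and its ranks match the scanner signal, so it is linear, quantile normalized and not centred.

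Control spots and outlier spots were left out. Replicate spots were averaged as log2 values, and the array's 75th percentile was subtracted. The background flag was passed on 2 or more arrays by 34574 of 56605 probes, and the brightest of these stood for each of 23520 gene names. Contrasts have 1 array a group and no test. limma 3.58.1 in R 4.3.3 gave the additive fit, tested on simulated data. Python 3.11.15, pandas 2.3.3 and numpy 2.4.6 did the rest, with matplotlib 3.10.9. Named genes were all 32 members and, from each wider list, the 2 highest and 2 lowest by the mean ALDH difference over both times and by the ZT0 minus ZT12 difference; Shmt2 and Psph were added after their values were seen. Members and lists were chosen with earlier results of these data known. Exon and UTR positions were not analysed here. Alternatives changed the scaling, background correction, filter, probe rule, fold size and source of values.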

Additional observations from a re-analysis of the deposited data

Results flagged for a closer look

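Several ALDH differences had opposite signs at ZT0 and ZT12 and were at least 2-fold at both times, on 1 array per fraction and time. The difference between the 2 times was not tested, and it cannot be told apart from a difference between array positions. Subtracting the ZT12 value from the ZT0 value of ALDH-high minus ALDH-low gave 6.37 log2 units for Dnajb9, 4.76 for Ppp1r15a, 4.46 for Sesn2, 4.34 for Chac1, 4.20 for Eif2ak3 and 4.17 for Asns. It gave 2.90 for Xbp1, 2.76 for Ern1, 2.66 for Atf4 and 2.46 for Edem1. The group medians differed by 2.83 for the sensors with Xbp1 and by 2.59 for the ATF4 genes. In the reverse direction, the values were -4.38 for Phgdh, -4.20 for Sdf2l1, -3.64 for Pdia4, -3.51 for Hyou1, -3.43 for Psat1 and -2.32 for Calr. Other probes of Ern1 and Hyou1 did not all share these signs. Nor did the other probe of Atf6, which counts in the sensor median.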

How the results depend on the processing

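No paired analysis was possible because the groups compared share fewer than 2 replicate numbers, and with 1 array a group none could be left out of a contrast. The additive fit already takes the other factor as a block. Scaling on array medians moved the median of all features from -0.32 to 0.19 (ALDH at ZT0), from 0.30 to -0.64 (ALDH at ZT12), from -0.42 to 0.46 (time in ALDH-low) and from 0.33 to -0.23 (time in ALDH-high). The chaperone medians then became -0.43, -0.53, 0.39 and 0.44, and the ATF4 medians 2.02, -2.01, 2.08 and -1.75. At ZT0 the chaperone median was -1.35 with quantile normalization and -1.39 in the series table. Averaging the probes of a gene gave 1.66 for the ATF4 median and -2.17 for the chaperone minus ATF4 difference between times in ALDH-low cells. At 3-fold, 10 members differed by ALDH at each time and 12 by time in ALDH-high cells, and at 1.5-fold 26 and 29 differed by time in ALDH-low and ALDH-high cells. The share of all features was not computed at these sizes, so these counts show only how the number of members depends on the fold size. Of the other values for groups and counts, 125 stayed within the probe spread or within 1.5 times. That number holds settings that left a value as it was: the changed background filters, and median scaling for the chaperone minus ATF4 difference. Among the members, 631 of the values under other settings stayed within the spread between probes and 265 moved further, 128 of these by median scaling. The 631 include 128 values under each changed background filter. Those filters moved no member, since each was well above background on all 4 arrays, so these values do not bear on stability. limma called 0 features under every setting run. A random block for array position could not be fitted. The spread between tumours was not measured.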
